A study of Homo sapiens with 4 samples.

Results

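NLRP2 and 8 genes of the inflammasome pathway were followed in MDA-MB-231 cells, an established human triple-negative breast cancer line, after long-term exposure to cadmium. The members were picked by symbol from the 61541 genes of the count table, and the list was built around NLRP2 because NLRP2 was lower in the cadmium libraries. The other members are NLRP1, NLRX1, PYCARD, CASP1, CASP4, IL18, IL1B and GSDMD. All 9 had a row in the table and all 9 passed the filter on low counts. RNA was sequenced from parental cells passaged serially in normal medium (control, n = 2 libraries) and from cells that had become resistant through passage in medium with cadmium, the labelled dose being 10 µM (cadmium, n = 2 libraries). Both groups derive from 1 cell line, and nothing in the sources used here says that the cadmium libraries came from separately selected cultures. A p-value here therefore measures the spread between these 4 libraries, which may be technical. The labels call the controls biological replicates and the cadmium libraries only replicates. The control libraries carry the numbers 2 and 3 in the count table and are named control 2 and control 3.

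An inflammasome is a protein platform of innate immunity. A sensor of the NLR family recruits the adaptor ASC, encoded by PYCARD, which in turn recruits and activates caspase-1. Caspase-1 matures interleukin-1β and interleukin-18 and cleaves gasdermin D, whose fragment opens pores in the plasma membrane and causes a lytic cell death called pyroptosis. In the non-canonical branch, caspase-4 senses cytosolic lipopolysaccharide and cleaves gasdermin D directly. NLRP2 is a pyrin domain NLR protein that has been linked to inhibition of NF-κB signalling, and in oocytes and early embryos it is known as a partner of the subcortical maternal complex.

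Library depth ranged from 51934729 to 61916007 reads assigned to genes. Each mate of a read pair was counted as a read, so intervals based on counts alone would be too narrow. The 2 control libraries differed more than the 2 cadmium libraries. Over 12924 genes with a mean normalised read count of at least 100, the log2 ratio of the controls to each other had a robust SD of 0.56, and that of the cadmium pair had 0.16. A normalised read count is the read count divided by the size factor of its library. The metal-induced genes MT2A and MT1X, which encode metallothioneins, and HMOX1, which encodes heme oxygenase-1, were upregulated in the cadmium libraries, with log2 fold changes of 2.06, 2.87 and 2.48. All 3 passed the test described below (adjusted p = 9.41e-06, 3.48e-13 and 1.58e-08, DESeq2). Of the line's expected markers, VIM, CD44, KRT18 and AXL were high in all libraries, whereas the transcripts of the hormone receptors ESR1 and PGR averaged 11 and 18.3 normalised reads. ERBB2 and EPCAM, listed as low in this line, were at mean levels of 40.9 and 35.2 TPM, an abundance scaled by transcript length and library.

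NLRP2 (ENSG00000022556) lies on chromosome 19, plus strand, at 54953130 to 55001142 of hg38. The RefSeq annotation of GRCh38.p14 gives it 2 transcription starts that are 1090 bases apart. The 250 bases before each start are shown because they are nearly the same sequence, which bears on where reads from this gene can be placed. Capitals mark the single base that differs.
NLRP2 upstream start, chr19:54965034-54965283, plus strand: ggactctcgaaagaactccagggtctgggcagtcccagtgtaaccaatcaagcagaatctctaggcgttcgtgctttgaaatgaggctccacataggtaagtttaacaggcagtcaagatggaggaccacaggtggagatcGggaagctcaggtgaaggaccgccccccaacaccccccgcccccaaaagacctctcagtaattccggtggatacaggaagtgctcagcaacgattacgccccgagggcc
NLRP2 downstream start, chr19:54966124-54966373, plus strand: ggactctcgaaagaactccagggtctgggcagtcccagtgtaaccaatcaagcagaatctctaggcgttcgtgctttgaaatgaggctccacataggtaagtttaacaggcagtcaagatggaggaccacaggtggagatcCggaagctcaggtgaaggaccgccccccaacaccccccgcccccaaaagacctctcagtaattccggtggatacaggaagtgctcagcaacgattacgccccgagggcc
The sequences were identical at 249 of 250 bases, with the substitution G142C, counted from 1 at the 5′ end with the upstream start first. Both lie in a tandem repeat of 1071 bases, whose copies span 54964546 to 54965616 and 54965636 to 54966706 and are 98.3% identical. Only 315 of the 6313 exonic bases of NLRP2 (5.0%) fall in this repeat. Reads that align equally well to both copies were dropped by the counting, which leaves the other exonic bases to carry the count. No transcript of another gene matched NLRP2 at 95% identity or more over at least 100 bases, and the related NLRP2B had 0 reads in each library.

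The data show 3 patterns among these genes in the cadmium libraries. NLRP2 was about 4-fold lower, and both of its cadmium libraries were below both controls. CASP4 was about 2-fold higher and was the 1 of the 8 tested members that passed the test. NLRP1, NLRX1, PYCARD, CASP1, IL18, IL1B and GSDMD did not pass it.

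NLRP2 had 1292 normalised reads in control 2 and 787 in control 3, against 241 in cadmium 1 and 261 in cadmium 2. The cadmium libraries lay close together below the controls, and the groups did not overlap. The group means were 1039 ± 357 (SD, n = 2) for control and 250.7 ± 14 (SD, n = 2) for cadmium. The fitted log2 fold change of cadmium over control was -2.05 (SE 0.36, 95% interval -2.76 to -1.34), which is 4.14-fold lower in cadmium. Each of the 4 pairings of 1 cadmium with 1 control library gave a lower value in cadmium, from -2.42 to -1.59. The controls themselves differed by 0.71 on the log2 scale, against a median absolute difference of 0.44 over 3314 genes of similar count. Since NLRP2 was chosen for this change, its values are a description and no test is given. Without control 2 its log2 fold change was -1.65, and without control 3 it was -2.38.

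**Figure D1:**
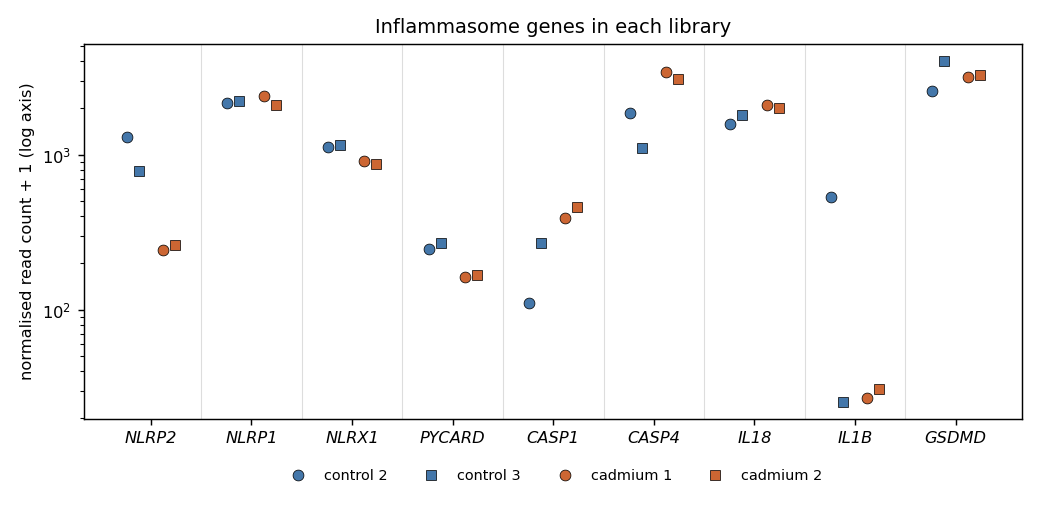
Normalised read count plus 1 on a log axis for each of the 9 genes, with 1 point per library (blue, control; orange, cadmium). The cadmium points of NLRP2, at 241 and 261, sit below both controls, those of CASP4, at 3397 and 3073, sit above both, and control 2 stands apart from the other libraries for IL1B.

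To compare the remaining 8 members between groups, DESeq2 was fitted to all genes and a gene was called when its Benjamini-Hochberg adjusted p-value was below 0.1. Over all genes tested, 225 of 19816 were called (1.14%), 119 higher (0.601%) and 106 lower (0.535%) in cadmium. Among the 8 members, 1 was called. The list was drawn up from this same contrast, so nothing is read from its share of calls. The median log2 fold change of the 8 was 0, beside -0.02 over all genes tested. With edgeR's quasi-likelihood test no gene in the table was called at the same threshold (0 of 19241, with 1506 genes, 7.83%, at an unadjusted p below 0.05), and limma-voom also called 0 (1423 genes, 7.4%, at an unadjusted p below 0.05). In 6 of the 9 members, and in 5 of the 8 other than NLRP2, both cadmium libraries were outside the range of the controls, which was the case for 40.3% of all genes tested.

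Among the sensors, NLRP1 and NLRX1 gave small differences that did not pass the test. NLRP1 (ENSG00000091592, chromosome 17, minus strand, 5499427 to 5619424) senses proteases and other stresses and carries its own CARD domain. It had 2147 and 2204 normalised reads in controls 2 and 3, and 2386 and 2084 in cadmium 1 and 2. The cadmium libraries lay on both sides of the controls. Its log2 fold change was 0.04 (SE 0.26, 95% interval -0.47 to 0.54, adjusted p = 1.0, DESeq2), an interval that includes changes of up to about 0.5 in either direction.

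NLRX1 (ENSG00000160703, chromosome 11, plus strand, 119166568 to 119184016) encodes a mitochondrial NLR protein that dampens antiviral and NF-κB signalling. It had 1122 and 1144 normalised reads in controls 2 and 3, and 902 and 873 in cadmium 1 and 2. Both cadmium libraries were below both controls by a small margin, and the replicates of each group agreed closely. Its fitted log2 fold change was -0.35 (SE 0.26, 95% interval -0.87 to 0.16, adjusted p = 0.955, DESeq2), which did not pass the test.

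PYCARD (ENSG00000103490, chromosome 16, minus strand, 31201486 to 31203450) encodes the adaptor ASC. It had 245 and 268 normalised reads in controls 2 and 3, and 162 and 167 in cadmium 1 and 2. The groups did not overlap, and the libraries within each group were close. The log2 fold change of -0.64 (SE 0.35, 95% interval -1.33 to 0.05) did not pass the test (adjusted p = 0.786, DESeq2). Of the 1660 exonic bases of PYCARD, 991 (59.7%) are shared with the antisense gene PYCARD-AS1. The counting ignored strand and dropped reads that overlapped both genes. PYCARD-AS1 had 0 reads in every library, and the PYCARD count comes from the remaining bases.

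Both caspases had higher counts in the cadmium libraries than in either control. CASP4 (ENSG00000196954, chromosome 11, minus strand, 104942866 to 104969366) had 1858 and 1101 normalised reads in controls 2 and 3, and 3397 and 3073 in cadmium 1 and 2. Both cadmium libraries were above the higher control. The group means were 1479 ± 536 (SD, n = 2) for control and 3235 ± 229 (SD, n = 2) for cadmium, a 2.19-fold difference. The fit gave a log2 fold change of 1.13 (SE 0.34, 95% interval 0.46 to 1.8, adjusted p = 0.0952, DESeq2). CASP4 thus rose, at an adjusted p close to the threshold. The edgeR test gave an unadjusted p of 0.0104 and an adjusted p of 0.62, and the call was also lost when either cadmium library was left out (log2 fold changes 1.05 without cadmium 1 and 1.2 without cadmium 2). Those 2 fits called 0.114% and 0.107% of all genes tested. Without control 2 and without control 3 the log2 fold change was 1.55 and 0.79.

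CASP1 (ENSG00000137752, chromosome 11, minus strand, 105025443 to 105035250) encodes caspase-1, the central protease of the pathway. It had 109 normalised reads in control 2 and 269 in control 3, against 390 in cadmium 1 and 456 in cadmium 2. Cadmium libraries were above both controls, but the controls were over 2-fold apart. The fit gave a log2 fold change of 1.17 (SE 0.49, 95% interval 0.21 to 2.12, adjusted p = 0.463, DESeq2), close in size to that of CASP4 with a larger error. Its size followed the control used. It was 0.65 without control 2 (adjusted p = 0.194, DESeq2) and 1.95 without control 3 (adjusted p = 1.85e-07, DESeq2), in fits where the lone control was assumed to vary like the cadmium libraries. In those fits 2311 (14.8%) and 6189 (31.2%) of all genes tested were called. Of the 2505 bases of the CASP1 transcript compared, 182 were 98.9% identical to CARD16, so reads there may have been lost or shared between both genes.

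Of the substrates, IL18 (ENSG00000150782, chromosome 11, minus strand, 112143253 to 112164096) encodes interleukin-18, which many epithelial cells store as a precursor. It had 1575 and 1801 normalised reads in controls 2 and 3, and 2092 and 1986 in cadmium 1 and 2. Cadmium libraries were slightly above both controls. The log2 fold change of 0.27 (SE 0.26, 95% interval -0.24 to 0.78) did not pass the test (adjusted p = 1.0, DESeq2), and it was 0.36 without control 3.

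IL1B (ENSG00000125538, chromosome 2, minus strand, 112829751 to 112836816) encodes interleukin-1β. It had 530 normalised reads in control 2 and 24.5 in control 3, against 25.9 in cadmium 1 and 29.6 in cadmium 2. Control 2 alone was high, and control 3 lay just below the cadmium libraries, so the groups overlapped. The log2 ratio between the 2 controls was 4.38, against a median absolute value of 0.62 over 2509 genes of similar count. With all 4 libraries the log2 fold change was -3.32 (SE 1.65, 95% interval -6.56 to -0.08, adjusted p = 0.701, DESeq2). This value rested on control 2. Without that library it was 0.18, and without control 3 it was -4.27.

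GSDMD (ENSG00000104518, chromosome 8, plus strand, 143553207 to 143563062) encodes gasdermin D, the pore-forming substrate shared by caspase-1 and caspase-4. It had 2573 and 4015 normalised reads in controls 2 and 3, and 3144 and 3261 in cadmium 1 and 2. The cadmium libraries lay between the controls. The log2 fold change was -0.04 (SE 0.32, 95% interval -0.67 to 0.59, adjusted p = 1.0, DESeq2), and its sign turned without control 3 (0.3), with upper-quartile factors (0.02) and with limma-voom, where it was at 0.0.

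**Figure D2:**
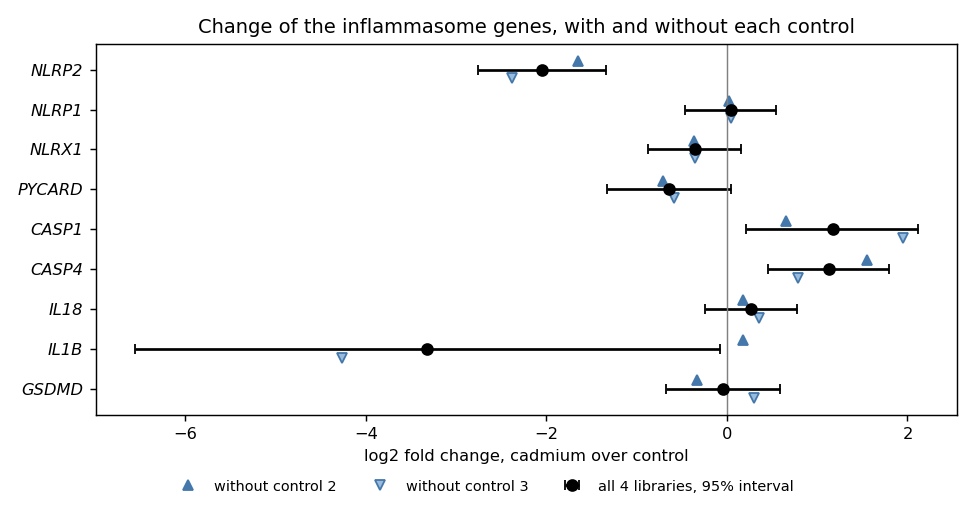
Log2 fold change of cadmium over control for the 9 genes, with the 95% interval of the fit to all 4 libraries (black) and the value without control 2 or control 3 (triangles). The triangles of IL1B are at 0.18 and -4.27 and those of CASP1 at 0.65 and 1.95, while those of NLRP1, NLRX1 and PYCARD lie almost on the black points.

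The controls also differed from each other for some members. The controls were at least 2-fold apart for 2 of the 9 members, CASP1 and IL1B, and for 23.6% of all genes tested. The cadmium libraries were that far apart for 0 of the 9 members and for 6.55% of all genes tested. CASP1 was higher in control 3, at -1.3 on the log2 scale of control 2 over control 3, whereas IL1B was higher in control 2.

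Levels of different genes were compared in TPM, computed from the count and the exonic length. IL18, GSDMD and CASP4 had the highest mean levels over the 4 libraries, at 54.7, 48.9 and 27.0 TPM. NLRX1 and NLRP1 followed at 14.5 and 14.4 TPM, then PYCARD at 9.65, NLRP2 at 7.67, CASP1 at 6.36 and IL1B at 3.7 TPM. PYCARD has no secure place in this order, because the reads over the bases shared with PYCARD-AS1 were dropped. Over the 669 bases not shared its mean level was 23.9 TPM (18.9 to 31.3 TPM over the 4 libraries) in place of 9.65 TPM (7.6 to 12.6 TPM), which moves it from below to above NLRP1 (13.3 to 16.1 TPM). Among the other members, neighbours in the order overlapped over the 4 libraries. On this scale, NLRP2 was at 14.8 and 9.75 TPM in controls 2 and 3 and at 3.0 and 3.12 TPM in cadmium 1 and 2. Both substrates IL18 and GSDMD and the adaptor PYCARD were thus transcribed at a measurable level in both groups.

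The sequence upstream of the RefSeq start of CASP4 is shown because CASP4 was the called member. It is chr11:104968575-104968824, minus strand, of GRCh38.p14, with CG dinucleotides in capitals.
CASP4: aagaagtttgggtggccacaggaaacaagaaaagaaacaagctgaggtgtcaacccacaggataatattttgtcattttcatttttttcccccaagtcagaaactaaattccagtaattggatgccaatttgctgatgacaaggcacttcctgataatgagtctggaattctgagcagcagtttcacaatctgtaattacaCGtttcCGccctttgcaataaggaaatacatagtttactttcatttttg
This window held 2 CG dinucleotides. Both NLRP2 windows held 10, PYCARD 16, NLRX1 5 and IL1B 1, beside a median of 11 over all RefSeq promoter windows of this length. Each window was searched on both strands for 4 motifs, namely the core of the metal response element (TGCACNC or TGCGCNC), the AP-1 site (TGANTCA), the κB consensus and the core of the interferon-stimulated response element (GAAA, any 2 bases, GAAA). These were found in 24.8%, 6.57%, 9.96% and 3.02% of 35116 promoter windows. Neither NLRP2 window, nor those of CASP4, PYCARD and IL1B, held any of the 4 motifs. The NLRX1 window held a metal response core (GGGTGCA, minus strand, 32 bases before the start) and a κB match (GGGAAGCCCC, 85 bases before the start, read on both strands). The NLRP2, CASP4, PYCARD and NLRX1 windows lay inside the genes as counted. Sequence before the outermost 5′ end of these genes was not searched. NLRP1, CASP1 and IL18 were not matched in the promoter table. GSDMD was not searched either, because windows on its chromosome were left out.

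To see whether the region around NLRP2 moved with it, the 10 nearest genes on each side with a mean normalised read count of at least 10 were listed, from 54415219 to 55230279 on chromosome 19. Their median log2 fold change was 0.1, with 12 higher and 8 lower and a range of -0.8 to 3.5. NLRP2, at -2.05, was below all 20. The nearest on the right were GP6-AS1, 5051 bases away, at 0.10, and RDH13, at 0.03. RDH13 had 1027 and 1036 normalised reads in the controls and 991 and 1122 in the cadmium libraries, with no separation of the groups.

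The nearest on the left were LILRB1 and KIR3DX1, members of the leukocyte immunoglobulin-like and killer-cell receptor families, and both were upregulated. LILRB1 had 1.89 and 12.8 normalised reads in controls 2 and 3, and 92.6 and 71.1 in cadmium 1 and 2 (log2 fold change 3.5, SE 0.88, adjusted p = 0.0149, DESeq2). KIR3DX1 had 32.2 and 39.3 in the controls, and 107.5 and 165.9 in cadmium (log2 fold change 1.94, SE 0.53, adjusted p = 0.0391, DESeq2). These genes, at low counts, moved opposite to NLRP2. They were the 2 called among the 20 neighbours, beside 1.14% of all genes tested. With edgeR neither was called (adjusted p = 0.62 for both). LILRB1 is 315108 bases away from NLRP2.

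**Figure D3:**
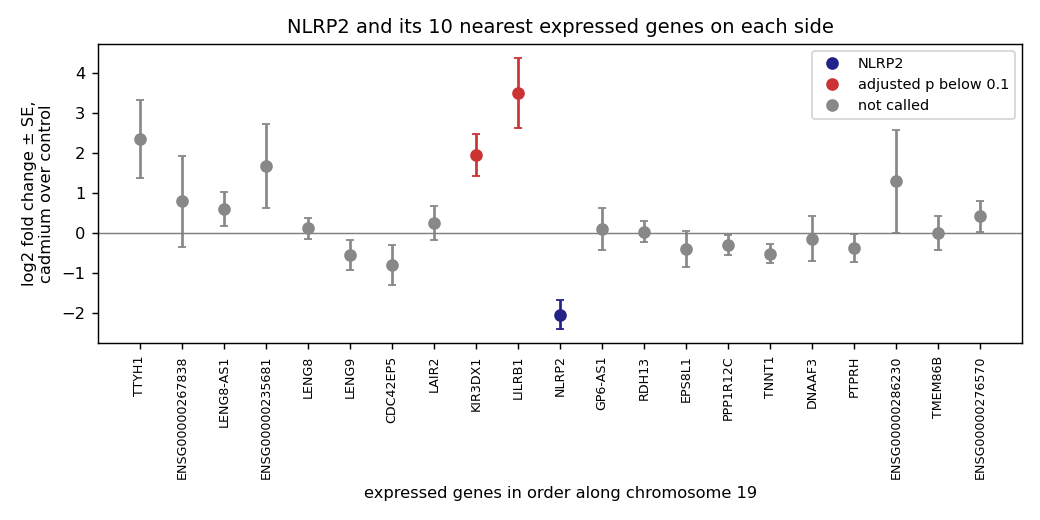
Log2 fold change ± SE of cadmium over control for NLRP2 (blue) and the 10 nearest expressed genes on each side, in their order along chromosome 19. NLRP2 is the lowest point, at -2.05, and the called genes LILRB1 and KIR3DX1 (red) are at 3.5 and 1.94.

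CASP4 and CASP1 are close neighbours on chromosome 11, and CARD16, which encodes a CARD-only relative of caspase-1, lies next to CASP1. CASP1 lies 56077 bases and CARD16 71960 bases beyond the end of CASP4. CARD16 had 43.5 and 186 normalised reads in controls 2 and 3, and 388 and 344 in cadmium 1 and 2. Its cadmium libraries were above both controls, as for CASP1, and the controls were again more than 2-fold apart. Its log2 fold change was 1.67 (SE 0.63, adjusted p = 0.309, DESeq2). The 20 expressed genes around CASP4 were listed after its values were seen. They run from 102317450 to 107565742 on chromosome 11 and include CASP1 and CARD16. Their median log2 fold change was 0.3, with 17 higher and 3 lower. Over all genes tested, 9398 were higher and 10418 lower. MMP1, which encodes a collagenase, was the 1 called among the 20, at 3.76 (adjusted p = 2.0e-05, DESeq2), beside 1.14% of all genes tested. With edgeR it was not called (adjusted p = 0.62). MMP1 is 2144706 bases away from CASP4.

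The genes whose pattern over the 4 libraries was most like that of NLRP2 were found among 14356 genes with a mean normalised read count of at least 50. Likeness was the root mean square difference of log2(normalised count + 1), each gene centred on its own mean. The nearest were ACSS1 (0.07), FOXD2 (0.13), CEMIP (0.15), ESYT3 (0.16) and SYNC (0.17), against a median of 1.04 over all genes compared. ACSS1, which encodes a mitochondrial acetyl-CoA synthetase, had 1508 and 947 normalised reads in controls 2 and 3, and 315.5 and 338 in cadmium 1 and 2. CEMIP, which encodes a hyaluronan-binding protein, had 3363 and 1727 in the controls, and 530.5 and 728 in cadmium. All 5 shared with NLRP2 a higher level in control 2 than in control 3 and a lower level in cadmium, which their choice by likeness favours. In all, 109 genes lay within 0.5 of NLRP2. Of the other members, PYCARD was nearest (0.75) and CASP1 farthest (1.8). With 4 libraries this likeness rests mostly on the 2 groups and is a description.

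The wider pathway was described with 78 further genes grouped by role. Of these, 13 had no read in any library and 49 passed the filter and were tested. In the cadmium libraries 2 of the 49 were upregulated and 0 were downregulated, beside 0.601% and 0.535% of all genes tested. Nothing particular to the list is read from a count of 2. The median log2 fold change was 0.01, with 26 higher and 23 lower. At an unadjusted DESeq2 p below 0.05, which 6.92% of all genes tested had, there were 7 of the 49, the sensors NLRP10, NLRP12 and NOD1, and CARD16, NINJ1, IL1R1 and TXNIP. After adjustment, edgeR and limma-voom called 0 genes of the list.

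Of 25 further sensors, 13 were tested and 1 was upregulated. NLRP10, an NLR protein without the ligand-sensing leucine-rich repeats, had 10.4 and 31.9 normalised reads in controls 2 and 3, and 102.5 and 103.7 in cadmium 1 and 2. Its cadmium libraries were both well above the controls, at a low level. Its log2 fold change was 2.29 (SE 0.69, adjusted p = 0.088, DESeq2). Without control 2 it was 1.69 and without control 3 it was 3.3. NLRP3, the best-known sensor, named here after its values were seen, had 532 and 172 in the controls and 488 and 571 in cadmium. Its control 2 was level with the cadmium libraries (log2 fold change 0.59, adjusted p = 1.0, DESeq2).

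Of 10 further caspases and CARD-only or PYD-only proteins, 4 were tested and 0 were called. CASP5, the closest relative of CASP4, had 0, 0, 0 and 2 reads in controls 2 and 3 and cadmium 1 and 2, so it was barely detected at this depth.

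Of 7 gasdermins and membrane rupture genes, 6 were tested and 0 were called. PANX1, which encodes a membrane channel, had 2587 and 1564 normalised reads in controls 2 and 3, and 2899 and 2683 in cadmium 1 and 2 (log2 fold change 0.43, SE 0.34, adjusted p = 0.981, DESeq2). NINJ1, which encodes a protein that ruptures the membrane in lytic death, had 1994 and 2985 in the controls, and 1211 and 1482 in cadmium. Both NINJ1 cadmium libraries were below both controls, but its log2 fold change of -0.89 (SE 0.33) did not pass the test (adjusted p = 0.287, DESeq2).

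Of 15 regulators, 14 were tested and 1 was upregulated. TXNIP, which encodes a thioredoxin-binding protein that can engage NLRP3, had 8475 and 7941 normalised reads in controls 2 and 3, and 14670 and 14060 in cadmium 1 and 2. The groups were far apart compared with the spread within each. Its log2 fold change was 0.81 (SE 0.24, 95% interval 0.34 to 1.28, adjusted p = 0.0804, DESeq2), and it was 0.85 without control 2 and 0.75 without control 3. As for CASP4, the calls of TXNIP and NLRP10 were lost with edgeR and without independent filtering. Neither was called without cadmium 1 (log2 fold changes 0.77 and 2.29) or without cadmium 2 (0.83 and 2.28, where the filter removed NLRP10).

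**Figure D4:**
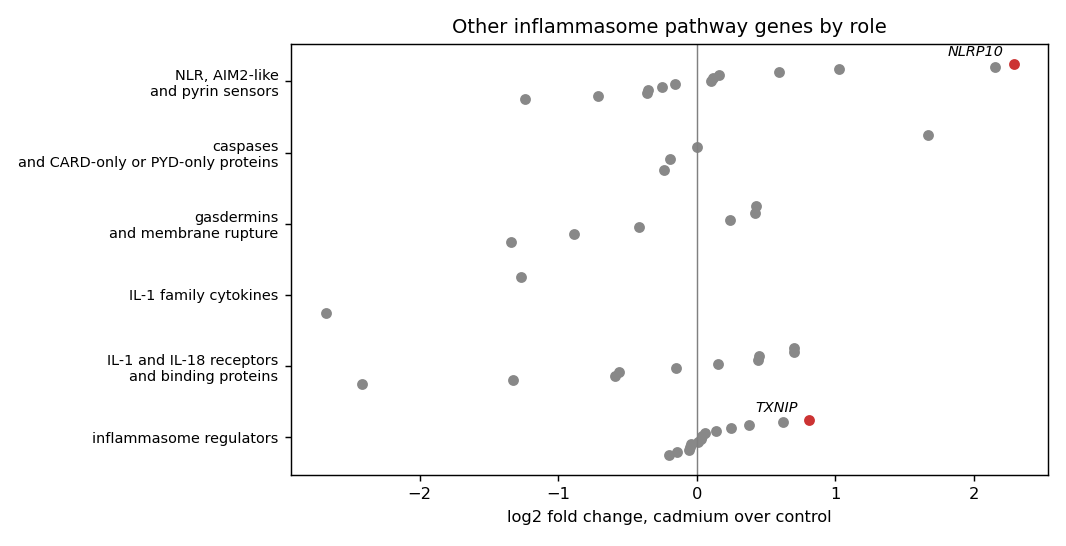
Log2 fold change of cadmium over control for the 49 tested genes of the wider pathway, by role, with called genes in red. NLRP10, at 2.29, and TXNIP, at 0.81, are the 2 called genes, and the rest spread to both sides of 0.

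Of 9 further IL-1 family cytokines, 4 had no reads and 2 were tested, IL1A and IL1RN, which encode interleukin-1α and the receptor antagonist. IL1A had 112 normalised reads in control 2 and 31.9 in control 3, against 22.9 in cadmium 1 and 36.5 in cadmium 2. IL1RN had 63.4 in control 2 and 0 in control 3, against 3.98 in cadmium 1 and 5.92 in cadmium 2. For both, as for IL1B, control 2 alone was high and control 3 did not stand above the cadmium libraries. Without control 2 the log2 fold change of IL1A was -0.11, against -1.27 with all libraries. Neither gene was called (adjusted p = 0.88 for IL1A and 0.901 for IL1RN, DESeq2).

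Of 12 receptors, binding proteins and signalling genes of interleukin-1 and interleukin-18, 10 were tested and 0 were called. IRAK1, a kinase below these receptors, had a log2 fold change of -0.56 (adjusted p = 0.8, DESeq2), and the adaptor MYD88 had 0.15 (adjusted p = 1.0, DESeq2). Some receptors, named after their values were seen, followed the cytokines in control 2. IL1R1, the signalling receptor of interleukin-1, had 1919 normalised reads in control 2 and 641 in control 3, against 544 in cadmium 1 and 475 in cadmium 2. IL1RAP, its co-receptor, had 1389 in control 2 and between 617 and 743 in the other libraries. IL18R1 had 106 in control 2 and 0 in control 3, against 14.9 in cadmium 1 and 4.94 in cadmium 2. Each was highest in control 2. IL18BP, a secreted decoy for interleukin-18, went the other way, with 237.5 in control 2 and 614 to 815 in the other libraries.

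**Figure D5:**
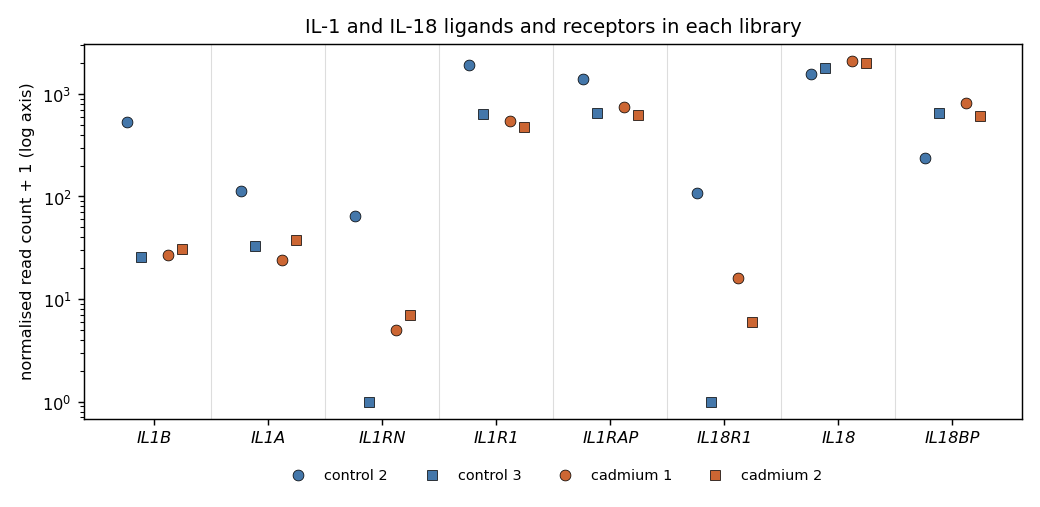
Normalised read count plus 1 on a log axis for ligands, receptors and the binding protein of interleukin-1 and interleukin-18, with 1 point per library (blue, control; orange, cadmium). Control 2 is the highest point for IL1B, IL1A, IL1RN, IL1R1, IL1RAP and IL18R1 and the lowest for IL18 and IL18BP.

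Of the 49 tested pathway genes, 18 had controls at least 2-fold apart, 10 with control 2 higher and 8 with control 3 higher, beside 23.6% of all genes tested. The epithelial marker EPCAM, named here after its values were seen, showed the same kind of split. It had 2410 normalised reads in control 2 and 662, 774 and 728 in control 3, cadmium 1 and cadmium 2. On the log2 scale of control 2 over control 3, EPCAM was at 1.86. The other line markers were at 0.23 for VIM, -0.21 for CD44, -0.07 for KRT18, 0.01 for AXL and 0.22 for ERBB2. At low counts, ESR1 was at 2.67 and PGR at 0.74. The leukocyte marker PTPRC, also named after its values were seen, split the other way. It had 1.89 normalised reads in control 2, 143.5 in control 3, and 36.8 and 42.5 in cadmium 1 and 2. Of 8 monocyte and macrophage markers 4 were tested and 0 were called, beside 1.14% of all genes tested. The summed level of the 8 was 13.8 and 13.9 TPM in the controls and 9.9 and 10.9 TPM in cadmium. The 4 tested were PTPRC, CD14, CSF1R and LYZ. CD14 had 221 and 133 normalised reads in controls 2 and 3 and 68.7 and 120.5 in cadmium 1 and 2. CSF1R had 179 and 280 in the controls and 252 and 306 in cadmium. LYZ had 18.9 and 30.8 in the controls and 42.8 and 7.9 in cadmium. FCER1G, not tested, had 10 and 8 reads in the controls and 6 and 2 in cadmium. ITGAM, also not tested, had 0 and 0 reads in the controls and 2 and 2 in cadmium. TYROBP had 0 reads in all libraries, and SPI1 had none in the controls and at most 0.99 normalised reads in cadmium. The part of other cell types in the control difference was not tested.

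Because NLRP2 is known to inhibit NF-κB, the 12 subunits and inhibitors of that pathway were listed. All 12 were tested and 0 were called, beside 1.14% of all genes tested. There were 4 higher and 8 lower, with a median log2 fold change of -0.09, beside -0.02 over all genes tested. NFKBIA, which encodes the inhibitor IκBα, had 7449 and 6276 normalised reads in controls 2 and 3, and 4994 and 3910 in cadmium 1 and 2. Its groups did not overlap, and its log2 fold change was -0.62 (SE 0.28, adjusted p = 0.561, DESeq2). It was the 1 gene of the 12 with an unadjusted DESeq2 p below 0.05, which 6.92% of all genes tested had. RELA, which encodes the p65 subunit, had 12650 and 7427 in the controls and 8287 and 8315 in cadmium, with overlapping groups (log2 fold change -0.27, adjusted p = 1.0, DESeq2). Without control 2, 3 of the 12 were called and the median was 0.19, in a fit that called 14.8% of all genes tested. Without control 3, 5 were called and the median was -0.37, in a fit that called 31.2%.

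The subcortical maternal complex, with which NLRP2 acts in oocytes, had few detected genes here. Of 7 genes, 2 were tested and 0 were called, beside 1.14% of all genes tested. ZBED3 had 2672 and 1578 normalised reads in controls 2 and 3, and 2150 and 1873 in cadmium 1 and 2 (log2 fold change -0.08, adjusted p = 1.0, DESeq2). TLE6 had 13.2 and 42.5 in the controls, and 7.96 and 13.8 in cadmium (log2 fold change -1.35, adjusted p = 0.967, DESeq2). The groups overlapped for both. NLRP5 and KHDC3L had 0 reads in each library, and NLRP7, the closest relative of NLRP2, had 2 reads in control 2 and none elsewhere. A library with 0 reads still allows up to 3 counts by counting error. At an unadjusted p below 0.05, DESeq2 gave 0 genes of this list, beside 6.92% of all genes tested.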

How the data were processed

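Per the study's methods and the labels, the authors trimmed adaptors with bbduk, aligned read pairs to hg38 with HISAT2 and assigned reads to Ensembl genes with featureCounts 2.0.1. The file deposited by the authors holds raw counts of reads for each gene, not normalized. The command in its header named only annotation and output, so default settings applied, with strand ignored, multi-mapping and multi-gene reads dropped and mates counted separately (70.6% to 71.5% of counts from 1 to 20 were even). The 37 mitochondrial genes had 0 reads. Gene symbols came from a name table that matched 61369 of 61541 identifiers.

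Control columns numbered 2 and 3 were assigned to the control group by name only, since the labels number the controls 1 and 2. DESeq2 1.42.0 in R 4.3.3 (design: group, two-sided Wald test, Benjamini-Hochberg after independent filtering at a mean of 7.69) was fitted to all genes, as in the study, with 0.1 as the threshold. Size factors were 1.06, 0.94, 1.0 and 1.01. Alternatives were edgeR 4.0.16, limma-voom 3.58.1, other factors, filters and thresholds, halved counts and leaving out each library, with the edgeR and voom fits filtered by expression. TPM was computed from counts and exonic length, for PYCARD also over unshared bases. Promoter windows are RefSeq (GRCh38.p14), and transcripts were compared with blastn 2.17.0. Only the DESeq2, edgeR and limma-voom fits were tested on simulated counts. Intervals do not cover selection of the genes.

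The members and gene lists were chosen with earlier results of these data known. Genes named were the 9 members, called genes of each list or else the 2 with the highest mean TPM, the 2 nearest expressed neighbours of NLRP2 on each side with any called, the 5 nearest profiles and the metal-induced genes. CARD16, NLRP12, NOD1, NLRP3, CASP5, IL1R1, IL1RAP, IL18R1, IL18BP, MMP1 and the marker and complex genes at or near 0 were named after their values were seen. EPCAM and PTPRC were likewise picked from the marker lists for their split between the controls. Some genes that this rule selects are not reported here. Binding and accessibility data of the study were not analysed here.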

Additional observations from a re-analysis of the deposited data

How the results depend on the processing

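The direction of NLRP2 was lower in cadmium under every alternative run, with log2 fold changes from -2.38 to -1.65 when 1 library was left out. CASP4 was higher in all of them, but its call was lost with edgeR (1.13, adjusted p = 0.62), limma-voom (1.17, adjusted p = 0.669), halved counts (1.13, adjusted p = 0.112), no independent filtering (1.13, adjusted p = 0.161) and a threshold of 0.05 (1.13, adjusted p = 0.0981, DESeq2), so 0 of the 8 other members were called in each of these 5. With 1 library left out, CASP4 ranged from 0.79 to 1.55, CASP1 from 0.65 to 1.95, IL18 from 0.18 to 0.36, IL1B from -4.27 to 0.18, NLRP1 from -0.07 to 0.13 and GSDMD from -0.33 to 0.3, and 0 to 4 of the 8 were called (without control 3, CASP1, CASP4, IL18 and IL1B). GSDMD was also at 0.02 with upper-quartile factors and 0.0 with limma-voom. The cause of these changes was not tested, except that a lone control has no spread of its own in the fit.

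Over all genes, edgeR and limma-voom called 0 higher and 0 lower (1506 and 1423 genes at an unadjusted p below 0.05), and leaving out 1 library gave 9 to 2678 higher and 5 to 3511 lower. Of the wider pathway, 0 genes were called with edgeR, limma-voom, no independent filtering or a threshold of 0.05, 1 (TXNIP) with halved counts or a minimum of 10 counts in 2 libraries, and 0 to 21 with 1 library left out. NF-κB calls ranged from 0 to 5 and those of the subcortical maternal complex from 0 to 1 (ZBED3, without control 3). The median of the NLRP2 neighbours was 0.0 with 20 genes on each side and 0.06 to 0.32 with 1 library left out, and that of the CASP4 neighbours, a choice made after seeing the data, was 0.3 to 0.65. Among all alternative values computed, 137 were labelled unchanged. For a tested gene this meant the same direction and side of the threshold, and for a count of calls a change of at most 1.5 times. Values of NLRP2, which has no test, and the neighbour medians were included. Beyond these, 37 values or counts moved beyond the replicate spread or by over 1.5 times, 7 lost a call, 3 gained one and 5 changed sign.

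No paired analysis was possible because the controls are numbered 2 and 3 in the table but 1 and 2 in the labels. The standard errors of the members' log2 fold changes, from 0.26 for NLRP1, NLRX1 and IL18 to 1.65 for IL1B, set what 2 libraries a group can show.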
